A study of Homo sapiens with 2 samples.

Results

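The promoters of the cytosolic ribosomal protein genes were examined for accessible chromatin in B2B cells. The members were the protein-coding genes of the GENCODE annotation whose symbol is RPL or RPS, a number and at most a final A or X, together with RPLP0, RPLP1, RPLP2 and RPSA. This rule used names only and found 77 of the 20007 protein-coding genes on chromosomes 1 to 22, X and Y, 46 of them encoding proteins of the large subunit and 31 of the small subunit. B2B is the BEAS-2B line, human bronchial epithelial cells immortalized with viral genes and used by the study as the non-cancerous counterpart of a lung cancer line. The cells were labelled wild type, no treatment was named, and the single group had 2 replicates, which the study's methods call biological, profiled by ATAC-seq, a method that tags open DNA with sequencing adapters through the Tn5 transposase. With 1 condition there were no groups to compare, so the values below are descriptions, and no test was run.

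The cytosolic ribosome is built from a small subunit, which reads the mRNA, and a large subunit, which joins the amino acids. Most ribosomal proteins are needed in equal amounts, and their genes, scattered over the chromosomes, are among the most strongly transcribed genes of growing cells. Their mRNAs typically begin with a C followed by a run of pyrimidines, the 5′ terminal oligopyrimidine (TOP) motif, through which growth signals control their translation.

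The members lay on 21 chromosomes, with 12 of them on chromosome 19. At the annotated transcription start site (TSS) of the canonical transcript, 58 of the 77 members had a C followed by at least 4 pyrimidines, 75.3%, against 4.58% of all protein-coding genes. The base at the TSS was C in 62 members, A in 10 and G in 5, while 10.7% of all genes had a C, 50.8% an A and 37.1% a G there. In the 58 members the pyrimidine run, counted from the C, had a median of 8 bases and ranged from 5 to 19 bases. When the start was allowed to lie up to 5 bp to either side of the annotated TSS, 66 members had such a run, against 21.9% of all genes. This measure is of the hg38 reference sequence and used no ATAC-seq value.

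The sequences that follow are the hg38 reference from 130 bases before the TSS to 20 bases from the TSS on, written 5′ to 3′ on the strand of the gene, so that the TSS is base 131. Capitals mark the pyrimidine run at the TSS and the matches to the promoter motifs spelled out further on. RPSA and RPL34 had the highest mean fold enrichment of all members, RPL22 was also among the highest, and RPS14 is the small subunit gene whose loss of 1 copy underlies the anaemia of the 5q- syndrome.
RPSA (chr3:39406590-39406739, plus strand): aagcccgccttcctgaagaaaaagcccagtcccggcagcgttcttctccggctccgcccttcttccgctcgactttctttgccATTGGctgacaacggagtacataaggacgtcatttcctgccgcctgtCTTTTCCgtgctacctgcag
RPL34 (chr4:108620446-108620595, plus strand): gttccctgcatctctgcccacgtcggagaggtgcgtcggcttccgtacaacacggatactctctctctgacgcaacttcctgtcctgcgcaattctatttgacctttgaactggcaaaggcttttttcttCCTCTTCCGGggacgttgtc
RPL22 (chr1:6199576-6199725, minus strand): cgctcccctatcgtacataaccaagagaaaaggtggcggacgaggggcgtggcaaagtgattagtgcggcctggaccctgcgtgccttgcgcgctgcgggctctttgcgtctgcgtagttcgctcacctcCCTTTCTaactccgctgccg
RPS14 (chr5:150449720-150449869, minus strand): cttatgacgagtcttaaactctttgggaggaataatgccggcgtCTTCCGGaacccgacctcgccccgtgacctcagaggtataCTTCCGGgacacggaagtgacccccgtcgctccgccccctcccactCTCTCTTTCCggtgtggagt

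The TOP run of RPSA was preceded by a CCAAT box on the opposite strand, that of RPL34 ran into an ETS match, and RPS14 had a pair of ETS matches upstream of its run. RPL6, RPL31 and RPL39 had the lowest fold enrichment among the members with a peak in both replicates, and they are shown for comparison.
RPL6 (chr12:112409586-112409735, minus strand): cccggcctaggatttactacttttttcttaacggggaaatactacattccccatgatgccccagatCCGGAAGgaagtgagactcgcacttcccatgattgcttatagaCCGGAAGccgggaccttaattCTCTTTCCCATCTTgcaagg
RPL31 (chr2:101002159-101002308, plus strand): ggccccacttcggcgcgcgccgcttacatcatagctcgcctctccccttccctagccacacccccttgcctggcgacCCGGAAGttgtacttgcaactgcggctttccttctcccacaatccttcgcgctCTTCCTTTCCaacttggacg
RPL39 (chrX:119791611-119791760, minus strand): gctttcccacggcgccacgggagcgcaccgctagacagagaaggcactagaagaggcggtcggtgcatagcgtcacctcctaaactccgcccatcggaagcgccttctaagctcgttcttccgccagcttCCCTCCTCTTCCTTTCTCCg

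RPL6 and RPL31 also began with a TOP run and held ETS matches, and RPL39 had the longest run of all members, 19 bases. Of the members without a promoter peak in either replicate, 6 had a TOP run, and 3 of these follow. RPL11 is shown because its protein, with RPL5, binds and restrains MDM2 when ribosome assembly is disturbed. RPS2 is shown because it was 1 of 3 members with the exact letters TATAAA, and RPS27 because no exact motif match lay in its window. RPS27 did hold the similar letters tatataa before its run, which the search did not count.
RPL11 (chr1:23691676-23691825, plus strand): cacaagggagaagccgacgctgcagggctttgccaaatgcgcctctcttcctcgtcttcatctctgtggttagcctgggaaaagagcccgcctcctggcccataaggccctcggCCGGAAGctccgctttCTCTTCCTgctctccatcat
RPS2 (chr16:1964807-1964956, minus strand): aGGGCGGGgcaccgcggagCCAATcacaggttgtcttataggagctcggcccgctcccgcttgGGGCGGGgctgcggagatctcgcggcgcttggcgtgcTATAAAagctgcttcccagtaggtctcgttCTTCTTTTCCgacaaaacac
RPS27 (chr1:153990632-153990781, plus strand): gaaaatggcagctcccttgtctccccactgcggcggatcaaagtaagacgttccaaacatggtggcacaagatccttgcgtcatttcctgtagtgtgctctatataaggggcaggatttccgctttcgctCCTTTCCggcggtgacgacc

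For contrast, RPL15 and RPL32 had no pyrimidine run at the annotated TSS. The promoter of RPL15 was among the highest in fold enrichment, and that of RPL32 had no peak.
RPL15 (chr3:23917002-23917151, plus strand): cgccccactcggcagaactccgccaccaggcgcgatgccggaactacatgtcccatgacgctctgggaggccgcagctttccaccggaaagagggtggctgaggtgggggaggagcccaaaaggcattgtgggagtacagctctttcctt
RPL32 (chr3:12841546-12841695, minus strand): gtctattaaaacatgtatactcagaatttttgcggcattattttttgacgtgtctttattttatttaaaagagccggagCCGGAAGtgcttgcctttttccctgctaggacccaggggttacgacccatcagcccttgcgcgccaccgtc

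TOP runs and motif matches thus occurred both at the strongest promoter peaks and at promoters without a peak. In RPL32 a C followed by at least 4 pyrimidines lay within 5 bp of the annotated TSS, so this gene lacks a run only at the annotated base. In RPL15 a stretch of pyrimidines began more than 5 bp past the annotated TSS. Both stretches are in letters not set in capitals.

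The authors called peaks separately in each replicate, and each list gives for every peak a fold enrichment (the pileup at the summit over the local background, a linear ratio) and the position of the summit. The 28735 peaks of replicate 1 and 36162 of replicate 2 on the chromosomes named above were used. The lists hold no read totals, so depth was read from the peaks. The median summit pileup was 35 and 30 in the 2 lists, and their genome-wide backgrounds were 4.77 and 3.41. The lowest pileup of any listed peak was 16 and 13, so a member without a peak may still be accessible below these levels. Of the epithelial markers 1 of 12 (KRT18) had a peak in its window in each list, and 8 of 12 mesenchymal markers did. Over all protein-coding genes 52.3% did. The Wilson intervals were 1.49 to 35.4% for the epithelial and 39.1 to 86.2% for the mesenchymal share. They cover counting error over 12 picked genes each and are not a test of the cells. In replicate 1 the peak covered the TSS at 4 of the 8 mesenchymal markers and not at KRT18. The median CpG count was 44.5 for the epithelial and 52 for the mesenchymal markers, against 66 for all genes. The markers were not matched to other genes by CpG count, and the label of the cells as epithelial was not tested.

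Most ribosomal protein promoters carried a peak, but a substantial minority did not. Within 1 kb of the TSS, 52 of the 77 members had a peak in each replicate, 67.5% (95% Wilson interval 56.5 to 76.9), against 52.3% of all protein-coding genes. Replicate 1 had a peak at 56 members, 72.7% against 53.2% of all genes. Replicate 2 had a peak at 61 members, 79.2% against 58.0% of all genes. Neither replicate had a peak at 12 members, 15.6%, against 41.0% of all genes. The members had a median of 68 CpGs within 500 bp of the TSS, with a range from 35 to 113, and all protein-coding genes had a median of 66. Among the 5278 genes between the lower and upper quartile of the members' CpG counts, 56 to 81, 71.0% had a peak in both replicates, and 31 of the 43 members in that range did, 72.1%. Within this range the members' share was near that of all genes. When only peaks that cover the TSS were counted, the members' share in both replicates was also near that of all genes, 45.5% (35 of 77) against 43.5%.

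Both subunits were represented in each class. Of the small subunit genes 22 of 31 had a peak in both replicates, 71.0%, and of the large subunit genes 30 of 46, 65.2%. The 95% Wilson intervals, 53.4 to 83.9 and 50.8 to 77.3, overlapped over most of their length. The mitochondrial ribosome, whose proteins are encoded by a separate set of nuclear genes, had a peak at 60 of 78 genes in both replicates, 76.9%, and in neither replicate at 7. The proteasome, another abundant complex of fixed composition, had one at 32 of 39 genes, 82.1%. The interval of the members also overlapped those of the mitochondrial ribosome (66.4 to 84.9) and of the proteasome (67.3 to 91.0). These intervals cover counting error only.

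The 12 members without a promoter peak were RPL7A, RPL11, RPL17, RPL19, RPL23, RPL32, RPL36 and RPL41 of the large subunit and RPS2, RPS4X, RPS15 and RPS27 of the small subunit. RPL41 encodes the shortest ribosomal protein, and RPS4X is the X-linked copy of a gene that also has a Y-linked copy. Their CpG counts, 35 to 109 with a median of 58, spanned nearly the whole range of the members. The nearest peak to the TSS of RPL41 was 1319 bp away in replicate 1 and 1343 bp in replicate 2, just outside the window, and that of RPL7A was 8158 bp and 1023 bp away. RPL11 was the most isolated of them, with its nearest peaks 99198 bp and 51522 bp away. The nearest peak lay within 5 kb for 4 of the 12 members in replicate 1 and for 6 in replicate 2. When any annotated TSS of a gene was allowed, RPL36 had a peak in both replicates.

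A further 13 members had a peak in a single list. RPL3, which lies close to the peptidyl transferase centre, had a fold enrichment of 5.37 in replicate 1 only. RPS10 and RPS28, of the small subunit, had 5.02 and 4.33 in that replicate only. In replicate 2 only, RPL23A had 6.74, RPL29 had 5.89, RPS16 had 5.66, RPL21 had 5.44, RPL13 had 5.21, RPL12 had 4.98, RPL13A and RPS3 had 4.76 each and RPL4 had 4.08. The values of all 13, from 4.08 to 6.74, rested on pileups of 17 to 34 and lay in the lower part of the members' range in either list. Of the members in replicate 2 only, 7 of 9 hold a snoRNA gene.

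The ribosomal protein genes are known hosts of small nucleolar RNAs, which lie in their introns and guide rRNA modification. In the annotation 28 members held 60 snoRNA genes. A peak was present in both replicates at 14 of these 28 members, 50% (32.6 to 67.4), and at 38 of the 49 others, 77.6% (64.1 to 87.0). The gap lay mostly in replicate 1, with a peak at 16 of the 28 and 40 of the 49. In replicate 2 a peak was present at 21 of the 28 and 40 of the 49. Neither replicate had a peak at 17.9% of the members with a snoRNA gene and 14.3% of the others. The members with a TOP run at the annotated TSS had a peak in both replicates for 44 of 58, 75.9% (63.5 to 85.0), and those without one for 8 of 19, 42.1% (23.1 to 63.7). The 19 members without a TOP run included RPL3, RPL4, RPL9, RPL10A, RPL15, RPL17, RPL19, RPL23, RPL23A, RPL27, RPL32, RPS4X, RPS7, RPS15, RPS26 and RPS28. Both splits were looked at after the values were known and were not tested. Where a peak was present, its fold enrichment did not separate either split. The median in replicate 1 was 6.58 with a TOP run and 6.06 without, and in replicate 2 it was 8.39 and 8.84. With a snoRNA gene the medians were 7.62 and 7.93, and without one they were 6.24 and 8.53, so the order turned between the replicates.

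In fold enrichment the members were moderate. The median over the members with a peak was 6.50 in replicate 1 and 8.39 in replicate 2 (7.45 ± 1.34, SD, n = 2), against 7.97 and 9.06 over all protein-coding genes with a promoter peak (8.52 ± 0.773). The members' median was the lower one in each replicate, by less than the members' medians differed between the replicates. In pileup the members' median was also the lower one, 36.5 and 37 against 46 and 43, and it differed little between the replicates. In replicate 1, 39 of 56 members lay below the median of all genes and 4 among the highest 25%. In replicate 2, 36 of 61 lay below it and 10 among the highest 25%. Among the 52 members with both values, 24 lay below the median of all genes in both replicates and 14 above it in both. The median was 6.93 and 8.38 for the mitochondrial ribosome, close to the members, and 7.71 and 9.18 for the proteasome.

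**Figure D1:**
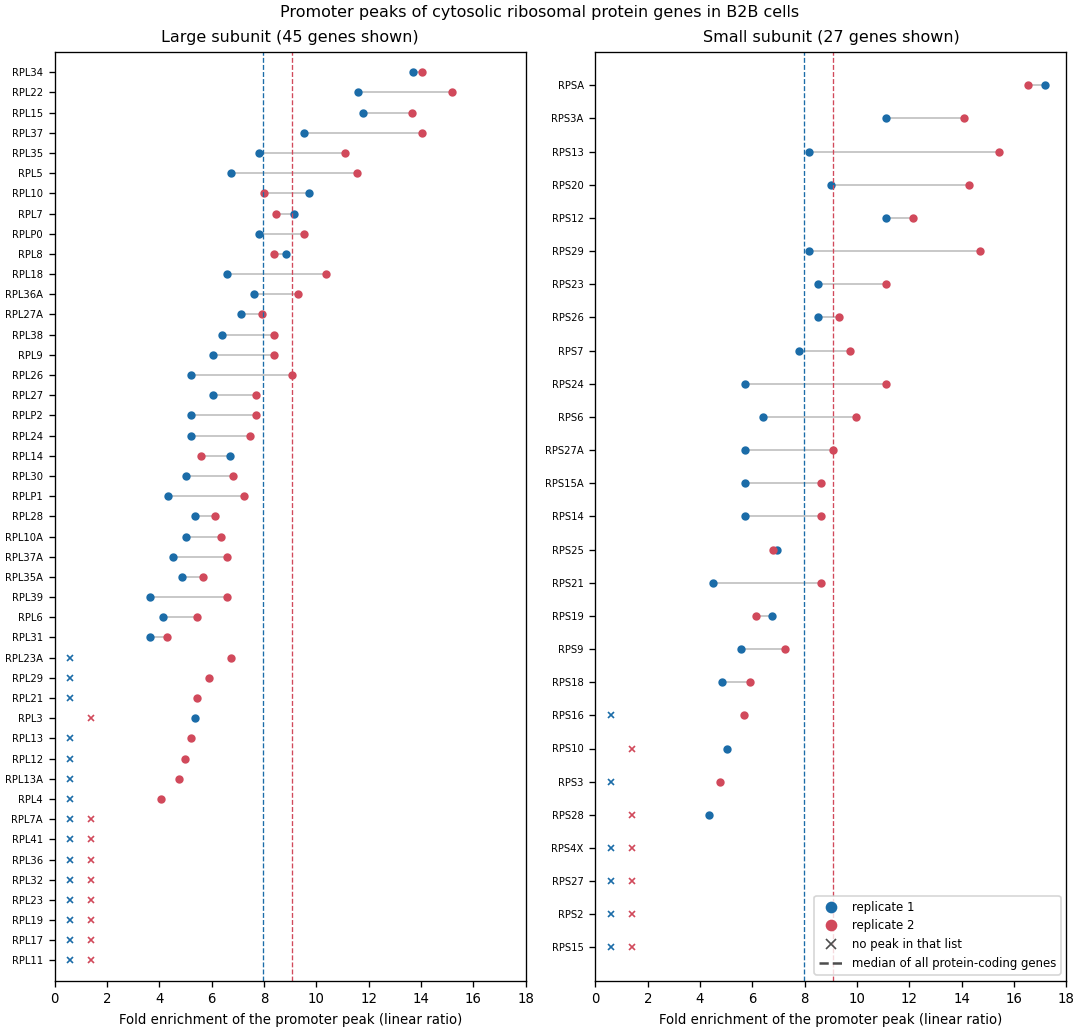
Fold enrichment (linear ratio, x axis) of the promoter peak of 72 of the 77 genes (y axis, 45 of the large and 27 of the small subunit), with 1 point per replicate joined by a grey line, crosses for a replicate without a peak, and dashed lines at the medians of all protein-coding genes, 7.97 in replicate 1 and 9.06 in replicate 2. RPSA stands at the top of the small subunit at 17.2 and 16.5, most members lie to the left of the dashed lines, and 12 genes have 2 crosses.

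The strongest promoter was that of RPSA, which encodes a small subunit protein also known as the laminin receptor precursor. Its peak ran over chr3:39406389-39407117 in replicate 1 and chr3:39406393-39407083 in replicate 2 (hg38), across the promoter, exon 1 and the start of intron 1. It reached 17.2-fold enrichment in replicate 1 and 16.5-fold in replicate 2, on pileups of 102 and 88. Even this peak stood at the 94.7th and 92.4th percentile of all promoter peaks, with 563 and 880 other genes higher. RPL34 followed at 13.7 and 14.0. RPL22, which binds RNA and is not essential for translation in mice, had 11.6 and 15.2. RPL15 had 11.8 and 13.6, and RPS3A had 11.1 and 14.1.

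A mean fold enrichment over 10 was also reached by RPL37 (9.53 and 14.0), RPS13 (8.14 and 15.4), RPS20 (9.01 and 14.3), RPS12 (11.1 and 12.1) and RPS29 (8.14 and 14.7). In all, 11 of the 52 members with both values lay above 10, 31 between 6 and 10 and 10 below 6. In the upper group 7 genes encode small subunit proteins and 4 large subunit proteins. Among all 52 members with both values, 22 encode small and 30 large subunit proteins. The median of the small subunit was 6.76 in replicate 1 and 9.52 in replicate 2, and that of the large subunit was 6.41 and 7.70. The small subunit thus lay above the large one in each replicate, by 0.35 and 1.82 units, while the replicates differed by 2.76 units for the small and 1.29 for the large subunit. The median pileups were 38 and 41 for the small and 36 and 34 for the large subunit.

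The weakest peak in both replicates was that of RPL31, at 3.64 and 4.30 on pileups of 20 and 18. RPL6 followed at 4.16 and 5.44, and RPL39, an X-linked gene of the exit tunnel, at 3.64 and 6.57. RPL35A had 4.85 and 5.66, RPS18 had 4.85 and 5.89, and RPL37A had 4.50 and 6.57. The lowest 10 were completed by RPL10A (5.02 and 6.34), RPL28 (5.37 and 6.12), RPLP1 (4.33 and 7.25) and RPL30 (5.02 and 6.80). Of these 10 genes 9 belong to the large subunit and only RPS18 to the small one. Among all 52 members with both values, 30 belong to the large subunit, and the split by subunit was not tested. RPL31 and RPL39 were also the members that dropped out when a stricter limit was put on the peaks.

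The order of the members was partly kept between replicates. Across the 52 members with both values the Spearman correlation of the fold enrichment was 0.763, and across the 10456 genes with both values it was 0.857. The members share a pair of libraries, and genes are not independent replicates. Replicate 2 was the higher one for 45 of the 52 members and for 71.5% of all genes. The median log2 ratio of replicate 2 to replicate 1 was 0.39 for the members and 0.19 for all genes. The median pileup was 36.5 and 37 for the members and 46 and 43 for all genes with a promoter peak. Fold enrichment divides by the background, whose genome-wide level was 4.77 in replicate 1 and 3.41 in replicate 2. A higher fold enrichment in replicate 2 is therefore not by itself a higher pileup. The 7 members higher in replicate 1 were RPL7, RPL8, RPL10, RPL14, RPS19, RPS25 and RPSA. The largest log2 ratios were those of RPS24 (0.96, from 5.72 and 11.1), RPS21 (0.93, from 4.50 and 8.61), RPS13 (0.92), and RPL39 and RPS29 (0.85 each). Neighbours in the order of the members were therefore not separated, whereas RPSA exceeded each of the lowest 10 in both lists by more than the replicates of any of them differed.

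Several members are known for human disease, and their promoters spanned most of the range of the members. Diamond-Blackfan anaemia, a failure of red cell production, is usually caused by loss of 1 copy of a ribosomal protein gene. Of 10 such genes 8 had a peak in both replicates. RPS19, the most frequently mutated of them, had 6.76 and 6.12, RPL5 had 6.76 and 11.6, RPS26 had 8.49 and 9.29, and RPS7 had 7.80 and 9.74. RPL35A and RPS24 were given above, RPL26 had 5.20 and 9.06, RPS10 had a peak in replicate 1 only and RPL11 had none. RPS14 of the 5q- syndrome had 5.72 and 8.61, close to the median of the members. The other members on chromosome 5, RPL37 and RPS23, had peaks in both replicates, RPS23 at 8.49 and 11.1.

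The 3 genes of the acidic stalk, which recruits the translation GTPases, all had peaks in both replicates. RPLP0, the base of the stalk and a common reference gene in expression assays, had 7.80 and 9.52. RPLP2 had 5.20 and 7.70, and RPLP1 was given above among the lowest. RPS6, the substrate of S6 kinase, had 6.41 and 9.97, and RPS27A, which is made as a fusion with ubiquitin, had 5.72 and 9.06. RPL10, which completes the large subunit late in assembly, had 9.70 and 8.02.

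Other members had values between these. For the small subunit, RPS15A had 5.72 and 8.61, RPS25 had 6.93 and 6.80, and RPS9 had 5.54 and 7.25. For the large subunit, RPL35 had 7.80 and 11.1, RPL18 had 6.58 and 10.4, RPL7 had 9.16 and 8.45, RPL8 had 8.84 and 8.39, and RPL36A had 7.62 and 9.29. RPL27A had 7.10 and 7.93, RPL38 had 6.41 and 8.38, RPL9 had 6.06 and 8.38, RPL27 had 6.06 and 7.70, RPL24 had 5.20 and 7.48, and RPL14 had 6.72 and 5.60. All of these means lay between the lowest group and the group over 10.

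The peaks of the members lay upstream of the TSS more often than those of all genes. The summit lay upstream of the TSS for 54 of 56 members in replicate 1, 96.4%, against 76.0% of all genes with a promoter peak. In replicate 2 it did so for 58 of 61 members, 95.1%, against 73.4% of all genes. The median summit lay 102 bp upstream in replicate 1 and 110 bp upstream in replicate 2 (106 ± 5.66 bp, SD, n = 2), while over all genes it lay 72 and 71 bp upstream. The difference of medians exceeded the spread between replicates.

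The peaks ended close to the TSS. On the downstream side the median peak of a member reached 38 bp past the TSS in replicate 1 and 77 bp in replicate 2, against 173 and 198 bp over all genes. On the upstream side it reached 280.5 and 334 bp, against 280 and 294 bp over all genes. The members' peaks also covered the TSS itself less often than those of all genes. Counting only the peak of highest fold enrichment in the window, they did so for 37 of 56 members in replicate 1, 66.1% against 81.5% of all genes. In replicate 2 they did so for 47 of 61 members, 77.0% against 82.3% of all genes. This peak covered the TSS in both replicates for 34 members. With any peak counted it was 35, as RPS19 had a weaker peak over its TSS in replicate 1. The TSS was covered in neither replicate for 8 members with peaks in both, among them RPL7, RPL10A, RPL18, RPL28, RPL35A and RPLP2. This trait was not particular to the members. Peaks covered the TSS for 66.7% and 70.0% of the ribosome assembly genes with a peak, and for 71.4% and 68.8% of other genes known for TOP mRNAs.

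**Figure D2:**
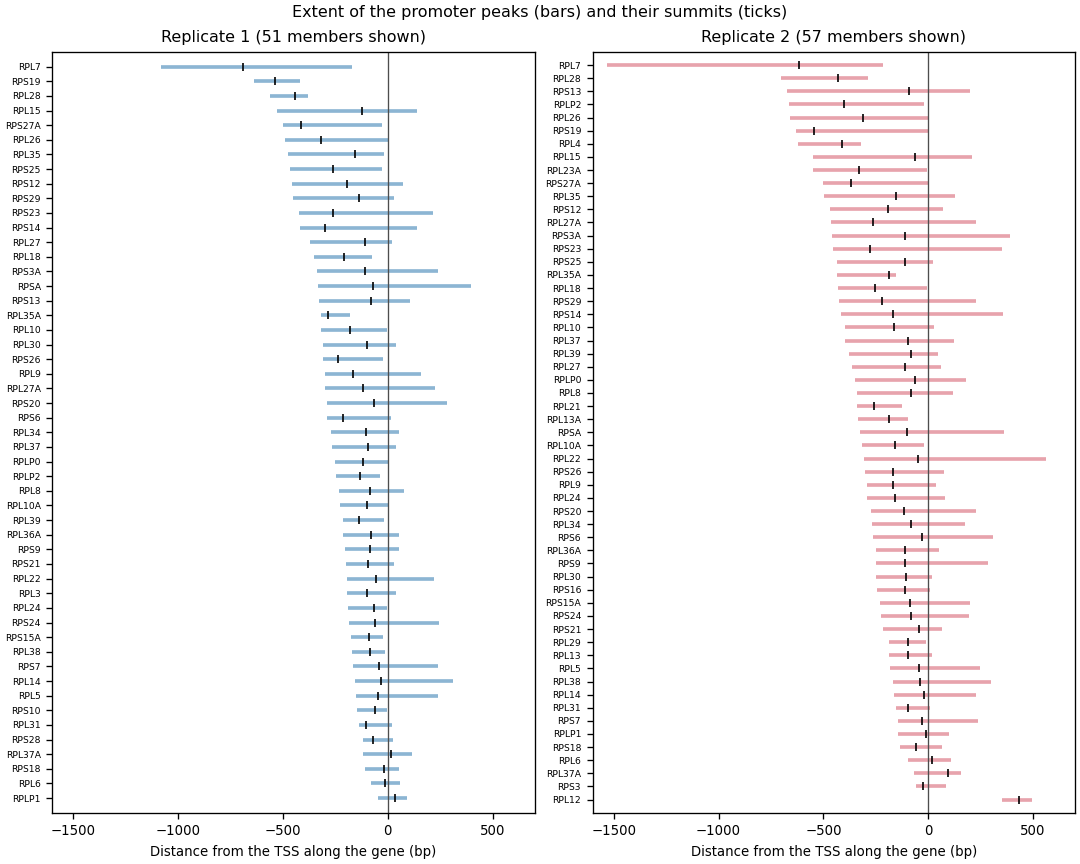
Extent of the promoter peak (bars) and position of its summit (ticks) along the gene, in bp from the TSS (x axis), for 51 members with a peak in replicate 1 and 57 in replicate 2, ordered by how far the peak reached upstream. Nearly all summits lie to the left of the TSS line, and RPL7 and RPS19 are among those farthest upstream, while RPL12 in replicate 2 is the only bar that lies wholly downstream.

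The same asymmetry appeared when peaks were counted position by position over all 77 members. At 100 bp upstream 64.9% of the members were covered in replicate 1 and 68.8% in replicate 2, at the TSS 49.4% and 61.0%, and at 100 bp downstream 20.8% and 33.8%. Over all protein-coding genes the corresponding shares were 45.1% and 49.6%, 45.5% and 50.2%, and 34.3% and 40.6%. At 100 bp upstream the members were thus above the share of all genes, and at 100 bp downstream below it, in both replicates. Farther out, at 500 bp upstream, the order differed between the replicates, with 6.49% of the members against 10.6% of all genes in replicate 1 and 15.6% against 12.4% in replicate 2. The mitochondrial ribosomal protein genes were covered in 67.9% and 79.5% at 100 bp upstream and still in 46.2% and 59.0% at 100 bp downstream. The proteasome genes had 69.2% and 76.9% upstream and 53.8% and 69.2% downstream. In both of these gene groups the loss from the upstream to the downstream position was smaller than in the members.

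**Figure D3:**
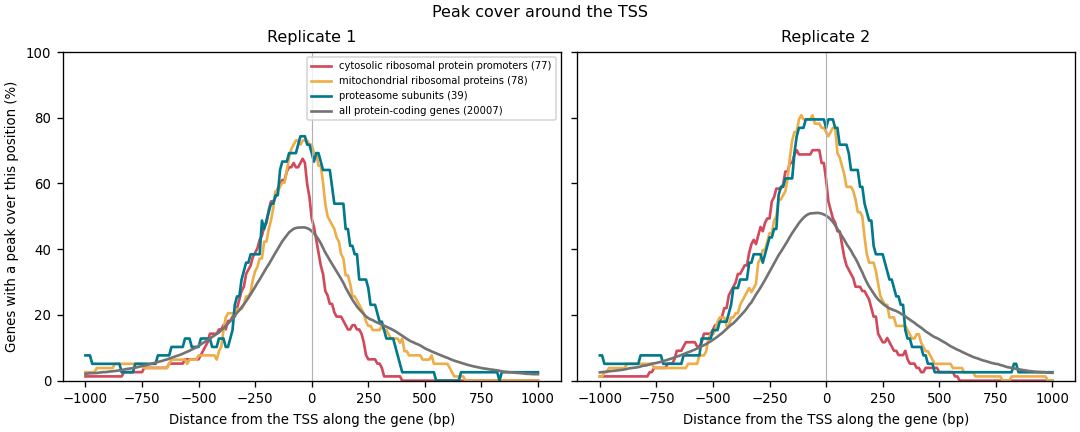
Share of genes (%, y axis) with a peak over each position from 1000 bp upstream to 1000 bp downstream of the TSS (x axis, bp) in each replicate, for the 77 cytosolic ribosomal protein genes, 78 mitochondrial ribosomal protein genes, 39 proteasome genes and all 20007 protein-coding genes. The curve of the cytosolic ribosomal protein genes drops from 64.9% at 100 bp upstream to 20.8% at 100 bp downstream in replicate 1 and crosses below the curve of all genes past the TSS.

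The members' peaks were also narrow. Their median width was 309 bp in replicate 1 and 429 bp in replicate 2 (369 ± 84.9 bp), against 471 and 521 bp over all genes. Below the median of all genes were 42 of 56 and 41 of 61 members. The median was 363 and 396.5 bp for the mitochondrial ribosome and 421.5 and 496 bp for the proteasome, so the members were the narrowest of these in replicate 1 but not in replicate 2. The peak was wider in replicate 2 for 44 of 52 members. The widest peaks were those of RPL7 (911 and 1318 bp), RPS23 (639 and 808 bp), RPL15 (668 and 760 bp), RPS3A (578 and 850 bp) and RPSA (729 and 691 bp). The narrowest were those of RPL31 (158 and 161 bp), RPL6 (143 and 203 bp), RPS18 (164 and 201 bp), RPLP1 (143 and 242 bp) and RPL35A (143 and 283 bp), and 143 bp was the shortest width in the list of replicate 1. Width and mean fold enrichment had a Spearman correlation of 0.664 across the 52 members, which share the libraries and the caller's limits.

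The peaks of the replicates lay at the same places. The peaks of all 52 members with peaks in both lists overlapped, and their summits were a median of 31 bp and at most 269 bp apart, within 50 bp for 34 members. RPS19 had its summit 540 and 544 bp upstream, RPL28 444 and 429 bp, RPS27A 412 and 370 bp, and RPL26 317 and 309 bp. The peak of RPL7 lay farthest, 690 and 617 bp upstream. On the other side, RPL37A had its summit 15 and 96 bp downstream. RPLP1 and RPL6 had theirs within 33 bp of the TSS, on different sides in the 2 replicates. The peak of RPL12, in replicate 2 only, had its summit 435 bp downstream, in intron 1. More than 1 peak lay in the window of 5 members in each replicate, and RPL10 was the member that had this in both.

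Some of these promoters are shared with a gene on the opposite strand. For 13 members such a gene had its TSS within 1 kb, 87 to 969 bp upstream. Of the 10 of these members with a peak in replicate 1, the summit lay closer to the start of the neighbour in 9, and of the 11 in replicate 2 in 7. This was so in both replicates for RPL7, RPL9, RPL18, RPL27A, RPL35 and RPS27A. These neighbours start on the upstream side, where nearly all summits of the members lay. The share over all genes with such a neighbour was not computed, so the counts do not set the members apart. The summits of RPS27A lay 17 and 25 bp from the start of CLHC1, and 412 and 370 bp from its own. The summits of RPL35 lay 16 and 18 bp from the start of ARPC5L, those of RPL9 33 bp in both replicates from the start of LIAS, and those of RPL7 279 and 352 bp from the start of RDH10. RPL15 was next to NKIRAS1, with the summit 19 bp from that start in replicate 1 and 78 bp in replicate 2. In RPS18, next to VPS52, the summits were 19 and 57 bp from its own start, and for such pairs the peak cannot be assigned to 1 gene.

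The values were also computed without these shared promoters. Without the 14 members that had another start in the window the median summit lay 95 bp upstream in replicate 1 and 105 bp in replicate 2, and 95.6% and 95.9% of the summits were upstream. All genes were not filtered for shared windows in this way. With another start in the window 10 of 14 members had a peak in both replicates and the median fold enrichment was 6.58 and 8.41, and without one 42 of 63 did and it was 6.41 and 8.39.

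The gene structure just past the TSS was compact. Exon 1 had a median length of 40 bp in the members, from 8 bp in RPL17 to 399 bp in RPL8, against 185 bp over all genes, and was at most 100 bp in 69 of 77 members against 22.8% of all genes. Intron 1 had a median of 467 bp against 3147 bp, and the 5′ untranslated region 41 bases against 131. The summit lay in exon 1 for 2 members in replicate 1 and for 1 member in replicate 2, but so short an exon leaves little room for a summit. As given above, the summit lay upstream of the TSS for 54 of 56 and 58 of 61 members. The GC content within 100 bp of the TSS had a median of 60.7%, against 66.7% over all genes. Across the 52 members the mean fold enrichment had Spearman correlations of 0.017 with the CpG count, 0.012 with the GC content, 0.12 with the length of exon 1 and 0.051 with that of intron 1.

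Promoter motifs were searched on both strands from 200 bp before to 100 bp after the TSS. CCGGAAG, bound by ETS factors, was found in 23 members, 29.9% against 13.7% of all genes. AAGATGG, bound by YY1, was found in 14 members, 18.2% against 6.75%, and GCATGCGC, bound by NRF1, in 6, 7.79% against 4.09%. CCAAT, bound by NFY, was found in 28 members, 36.4% against 34.3%. GGGCGGG, bound by SP and KLF factors, was less frequent than over all genes, in 26 members, 33.8% against 46.6%, and CACGTG, the E-box of MYC and USF, was in 4, 5.19% against 8.32%. TATAAA starting 40 to 20 bp before the TSS was found in RPLP0, RPS2 and RPS28, 3.90% against 3.94%. A match is a run of letters and not a measured binding site.

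**Figure D4:**
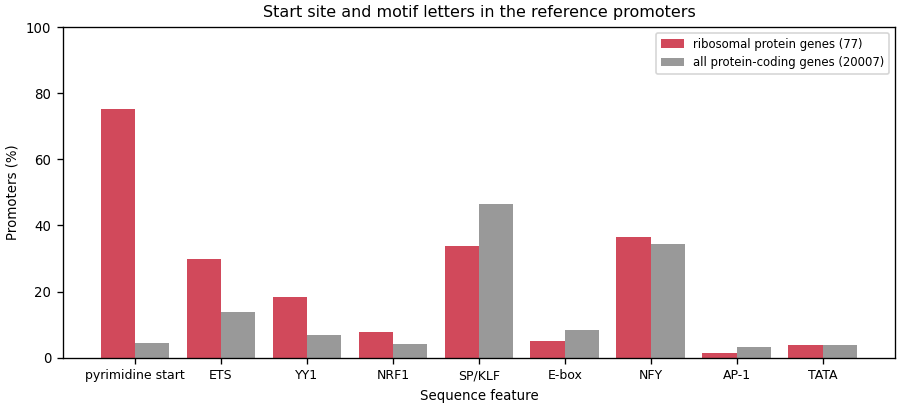
Share of promoters (%, y axis) that hold each sequence feature (x axis), for the 77 ribosomal protein genes and for all 20007 protein-coding genes, in the reference sequence. The pyrimidine start is at 75.3% against 4.58%, the ETS and YY1 letters are above the share of all genes, and the SP/KLF letters are below it.

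The study is concerned with AP-1, a family of stress and growth responsive factors that bind TGACTCA. Among the members only RPS20 held this motif in the window, 1.30% against 3.30% of all promoters. Within 100 bp of the summit it was found in 0 of 56 members in replicate 1, against 2.45% of all genes with a peak, and in 1 of 61 in replicate 2, 1.64% against 2.59%. These counts are too small to separate the members from the background.

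Members with ETS letters had a peak in both replicates for 16 of 23, 69.6%, and a median fold enrichment of 6.06 and 8.50, and members without them for 36 of 54, 66.7%, and 6.74 and 8.38. Members with SP/KLF letters had medians of 7.62 and 10.4, and members without them 5.72 and 7.59, so the carriers had the higher median in both replicates. For the YY1 letters the order was the opposite. Of their 14 carriers 7 had a peak in both replicates, with medians of 5.11 and 6.74, against 6.74 and 8.61 for the members without them. These splits were described and not tested.

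Other genes of the translation machinery gave a setting for these values. Of 8 genes that encode paralogues of ribosomal proteins, 6 had a peak in both replicates. RPL3L and RPL10L, which are made in muscle and testis, had none, and RPL39L and RPL22L1 had 15.8 and 13.5, and 12.6 and 10.6. Thus RPL39L was above RPL39 (3.64 and 6.57) in both replicates, whereas RPL22L1 and RPL22 (11.6 and 15.2) changed order. FAU, which encodes a ribosomal protein fused to a ubiquitin-like protein, had 5.37 and 8.38. MRPL49 of the mitochondrial ribosome had the same peak, with summits at -44 and -85 bp from its TSS, against -143 and -102 bp for FAU. This peak cannot be assigned to FAU alone. Of 17 other genes known for TOP mRNAs, mostly translation factors, 14 had a peak in both replicates. Their median fold enrichment was 9.10 and 9.52, their median summit lay 218 and 229 bp upstream, and 92.9% and 93.8% of their summits were upstream, near the members' shares. EEF2 had no peak. Of these 17 genes 15 also had a pyrimidine run at the annotated TSS.

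Of 30 ribosome assembly genes 24 had a peak in both replicates and all 30 had one in replicate 2, with a median fold enrichment of 7.10 and 7.02. Their median summit lay 134 and 110.5 bp upstream, beyond that of the members in replicate 1 and close to it in replicate 2, and 87.5% and 83.3% of their summits were upstream. Processed pseudogenes of ribosomal proteins are numerous in the human genome, and 1588 ribosomal protein pseudogenes were found in the annotation. A peak overlapped 11 of them in both replicates, 0.693%. Reads from exons could map to such copies, and how the authors' mapping treated them is not given in the sources used here.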

How the data were processed

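ATAC-seq peak lists of 2 replicates of B2B cells were analysed. The authors mapped reads to hg38 with Bowtie2 2.4.4, removed duplicates, used SAMtools 1.13 and called peaks per replicate with MACS2 2.2.7.1, as the submitters' processing notes and the methods state. The Tn5 shift, the mapping quality limit and the q limit are not given in the sources used here. The deposited fold enrichment is a linear ratio of pileup to local background, each with 1 added. The deposited −log10 p and −log10 q are per peak, and the authors' score column repeats the −log10 q, multiplied by 10, for 100% of peaks.

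A peak was given to a gene where it overlapped, by at least 1 bp, a window of 1 kb around the canonical TSS (GENCODE 44) in each direction, and the peak of highest fold enrichment was kept. The pileup was solved from fold enrichment and −log10 p with a tolerance of 0.01. Tests on simulated data recovered 3783 of 3783 pileups and 400 of 400 promoter windows. The simulated pileups used the same formulas as the solution, so this checks the code and not how the deposited values were made. In the deposited lists the pileup was not recovered for 79 and 71 peaks of replicates 1 and 2, none of them at a member. Sequences were read from hg38 and not from reads. Of the members, 62 had a RefSeq promoter and 60 of these the same TSS. Intervals are 95% Wilson intervals for counting error.

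Genes were named by rule: members without a peak, the extremes of fold enrichment, replicate difference, width and summit distance, shared promoters, and disease and stalk genes; other members were added for completeness. The counts and medians cover all 77 members, but 5 of them are not reported singly here and are not in the plots of single genes. The members and lists were chosen with earlier results of these data known. The alternatives tried were a stricter −log10 q (5 or more), as many peaks in each list, windows of 500 bp and 3 kb, peaks over the TSS, any annotated TSS, members without a shared window, each replicate alone and other motif windows. Computations used Python 3.11.15 (pandas 2.3.3, numpy 2.4.6, scipy 1.17.1) and figures matplotlib 3.10.9.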

Additional observations from a re-analysis of the deposited data

How the results depend on the processing

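Under the alternatives run, 35 to 61 members had a promoter peak, against 52 in the main setting. It was 50 for peaks with a −log10 q of 5 or more (RPL31 and RPL39 were lost), 51 with equal numbers of peaks, 52 with a window of 500 bp, 54 with 3 kb, 53 with any annotated TSS, 35 with peaks that cover the TSS (45.5%, near the 43.5% of all genes), and 56 or 61 in 1 replicate alone. The share of all genes, 52.3% in the main setting, was 43.5% with peaks that cover the TSS, 56.2% with any annotated TSS, and from 53.2% to 58.0% in 1 replicate alone. The median summit lay at -106 bp in the main setting, at -95 bp with peaks that cover the TSS and at -100 bp without members that share the window, so it was upstream throughout. The median fold enrichment changed order between the replicates for members with and without a TOP run, a snoRNA gene or ETS letters. Motif counts were lower in smaller windows or around the summits, except AP-1, which was found in 1 member in the main window and in 1 around the summits of replicate 2. For the YY1 letters 4 and 3 members had them within 100 bp of the summit. Motif shares of all genes were not recomputed in the smaller window. No paired analysis was possible because both samples are of 1 condition. The pileups behind the members, 17 to 102, limit what an absent peak can say.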
